A study of Mus musculus with 6 samples.

Results

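The 4 adult hemoglobin genes Hba-a1, Hba-a2, Hbb-bs and Hbb-bt were followed through every sorted cell of the study, as 4 of the 23494 genes counted in any of the deposited tables. They were selected on these measured values, because they led several ratios between cell clusters from few cells, so their levels by cluster and library are given as a description, without a test. The question was how many cells carried these transcripts, how many molecules (UMIs, unique molecular identifiers) each of those cells held, and what else was in the same cells.

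The cells were tdT+/DAPI- cells sorted from the cerebral cortex of Tbx18-CreERT2/Ai14-flx mice and, in a second line, of NG2-Cre-ERT2/Ai14-flx mice, all 3 to 4 months old by the labels. In both lines tamoxifen activates a Cre recombinase, driven by the regulatory sequence of Cspg4 (the gene of NG2) or by the Tbx18 locus, and Ai14 then marks the cell and its progeny with tdTomato. Each line gave a naïve library (no injury), a physical injury library (saline injected into the cortex) and an ischemic injury library (the vasoconstrictor ET-1 with L-NAME, which blocks nitric oxide synthesis). The injured mice had received tamoxifen 7 days before the injection and were sampled 3 days after it. All libraries come from mice with both Cre and Ai14, and the labels give tamoxifen for both lines but its timing only for injured mice. Tissue of several animals was pooled into 1 library per condition, and a cell type enters a library only through the sort, because NG2 is also made by oligodendrocyte precursors and Tbx18 by smooth muscle cells and some fibroblasts. With 1 library per condition no difference between conditions was tested.

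Hemoglobin carries oxygen on heme held by alpha-type and beta-type chains, which erythroid cells make in great excess over all other proteins. Mature red cells have no nucleus, but young ones (reticulocytes) still hold globin mRNA, together with Alas2, the erythroid enzyme that starts heme synthesis. Outside the erythroid lineage, alpha chains without beta chains are known from the endothelium of small arteries, where they limit the spread of nitric oxide.

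By GENCODE M21 on GRCm38, Hba-a1 lies at chr11:32283511-32284465 and Hba-a2 at chr11:32296489-32297298, both on the plus strand and 12978 bases apart from start to start. Hbb-bs lies at chr7:103826534-103828096 and Hbb-bt at chr7:103812524-103813996, both on the minus strand, with starts 14100 bases apart. Each of the 4 genes has 3 exons. The members of a pair are close copies. Of all 91-base windows in the last 300 bases of the transcript, the part that 3′ libraries read, 56.7% of those of Hba-a1 and 49.0% of those of Hba-a2 occur unchanged in the other copy, against 24.3% for Hbb-bs and 23.8% for Hbb-bt. The split of a pair between its copies is therefore uncertain, while no such window is shared between alpha and beta. The 150 bases before the RefSeq start of each gene (GRCm38.p6; chr11:32283522-32283671, chr11:32296342-32296491, chr7:103827929-103828078 and chr7:103813924-103814073) are shown 5′ to 3′ on the strand of the gene, because counts of the 4 genes ran together from cell to cell. The annotations place the starts differently, so the window lies inside the GENCODE gene for Hba-a1 and Hbb-bs and overlaps its first bases for Hba-a2 and Hbb-bt. Capitals mark the TATA box (TATAA), the CCAAT box (also as ATTGG, on the other strand) and the CACCC box.
Hba-a1: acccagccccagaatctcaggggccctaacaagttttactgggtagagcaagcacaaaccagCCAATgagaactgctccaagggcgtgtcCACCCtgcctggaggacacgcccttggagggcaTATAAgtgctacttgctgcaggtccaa
Hba-a2: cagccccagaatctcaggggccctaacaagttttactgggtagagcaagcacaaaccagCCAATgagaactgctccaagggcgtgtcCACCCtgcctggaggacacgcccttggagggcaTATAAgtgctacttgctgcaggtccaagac
Hbb-bs: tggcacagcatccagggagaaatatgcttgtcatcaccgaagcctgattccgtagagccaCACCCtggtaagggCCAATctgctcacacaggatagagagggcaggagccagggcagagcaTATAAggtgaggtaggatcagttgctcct
Hbb-bt: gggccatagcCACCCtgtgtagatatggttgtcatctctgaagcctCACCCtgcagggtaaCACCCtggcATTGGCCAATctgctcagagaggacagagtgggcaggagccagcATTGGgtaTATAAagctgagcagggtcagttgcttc
All 3 motifs, searched on both strands, were found in each of the 4 windows, where no motif overlaps another. Singly they occur in 14.2% (TATAA), 24.5% (CCAAT) and 37.4% (CACCC) of the 32851 RefSeq windows of the same length, and together in 1.10%. GATAA, searched in the same way, is in none of the 4 windows and in 13.3% of all. The alpha windows share an unbroken run of 147 bases, the beta windows one of 14, and an alpha and a beta window 8 or 9 at most. These matches describe letters only.

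The libraries held 4306 naïve, 2563 physical injury and 3586 ischemic injury NG2-tdT+ cells, and 686, 3845 and 2047 Tbx18-tdT+ cells. Their total counts ranged from 3153996 UMIs (Tbx18 naïve) to 54276245 UMIs (NG2 ischemic injury), and the median cell from 2806 UMIs (Tbx18 naïve) to 9232 UMIs (Tbx18 ischemic injury). Libraries shared 30 cell barcodes over their 15 pairs, 0 to 5 a pair, and no shared barcode belonged to a cell with 10 or more hemoglobin UMIs. The clusters are those the study deposited for each line. Cluster 5 of the NG2 line and cluster 0 of the Tbx18 line are called endothelial-like here, since the 5 endothelial markers (Cldn5, Ly6c1, Flt1, Pecam1 and Cdh5) summed to 13304 and 14661 CPM (counts per 1000000 UMIs) in them and to at most 591 CPM in any other cluster, summed over the libraries of a line. Within a library, cluster 4 of Tbx18 naïve reached 2238 CPM.

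Hemoglobin transcripts were abundant in all 4 injured libraries and scarce in both naïve ones. Summed over the 4 genes there were 1754 UMIs in the NG2 naïve, 32760 in the NG2 physical injury and 64583 in the NG2 ischemic injury library. The Tbx18 libraries held 204, 51237 and 58432 UMIs in the same order. In CPM, with exact 95% Poisson intervals that cover counting error only, the NG2 line stood at 86.6 (82.6 to 90.7), 1328 (1313 to 1342) and 1190 (1181 to 1199), and the Tbx18 line at 64.7 (56.1 to 74.2), 1697 (1682 to 1712) and 2877 (2854 to 2901). The order of the sums therefore ran from Tbx18 ischemic injury at the top to Tbx18 naïve at the bottom, with the NG2 injured libraries next to each other in the middle. The injured libraries were 15.3-fold (physical) and 13.7-fold (ischemic) above naïve in the NG2 line, and 26.2-fold and 44.5-fold above it in the Tbx18 line. Ischemic injury differed from physical injury by -0.16 on the log2 scale in the NG2 line and by 0.76 in the Tbx18 line, and naïve Tbx18 from naïve NG2 by -0.42. Single cells decided these values. Without the highest cell of each library, the NG2 naïve level was 22.6 CPM in place of 86.6, the NG2 physical injury level 747 CPM in place of 1328, and the NG2 ischemic to physical log2 ratio turned to 0.28. Without the 10 highest cells of each library, naïve lay above injured in the Tbx18 line, with log2 ratios of -0.80 for physical and -1.62 for ischemic injury.

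All 4 genes stood higher in the injured libraries than in the naïve one of their line, while the order of the injuries in the NG2 line was not the same for each. Hba-a1 stood at 23.8, 317 and 234 CPM in the NG2 naïve, physical injury and ischemic injury libraries and at 12.4, 382 and 594 CPM in the Tbx18 ones. Hba-a2 stood at 16.8, 231 and 175 CPM in the NG2 line and at 10.5, 280 and 473 CPM in the Tbx18 line. For both alpha genes the injured libraries of each line lay far above its naïve library. Hbb-bs, the beta gene with the most UMIs, stood at 45.9, 693 and 638 CPM in the NG2 line and at 37.4, 879 and 1499 CPM in the Tbx18 line. Hbb-bt had 0 UMIs in the NG2 naïve library, against 86.6 CPM (2136 UMIs) after physical and 142 CPM (7682 UMIs) after ischemic injury, and 4.44, 156 and 312 CPM in the Tbx18 line. Taken against a floor of 3 counts in the naïve library, Hbb-bt was at least 585-fold higher after physical and at least 956-fold higher after ischemic injury in the NG2 line. These bounds rest on few cells, since a single cell held 1427 of the 2136 UMIs and another 2012 of the 7682. Of the 930 beta UMIs of the NG2 naïve library, 644 and 278 came from its 2 very high cells, so its Hbb-bt value rests on these cells, and Hbb-bt also took 0% of the beta UMIs in 1 very high cell of an injured library. In the injured NG2 libraries as a whole that share was 11.1% and 18.1%, and in their single very high cells it ranged from 0% to 22.1%. After ischemic against physical injury in the NG2 line, Hba-a1 and Hba-a2 had log2 ratios of -0.44 and -0.40, Hbb-bs one of -0.12 and Hbb-bt one of 0.71. Of the 4 genes, 4 were at least 2-fold above naïve in the NG2 physical injury library, where 21.4% of all genes compared were, and 4 in the NG2 ischemic injury library, where 26.2% were. Likewise 4 of 4 were at least 2-fold above naïve after physical injury in the Tbx18 line (17% of all genes) and after ischemic injury (20%). Between the injuries, 0 of 4 passed 2-fold in either direction in the NG2 line (7.99% of all genes higher and 6.28% lower after ischemic injury) or in the Tbx18 line (5.1% higher and 10.1% lower), where Hbb-bt at a log2 ratio of 1.00 lay just under the limit. Of the 3 genes with counts in both naïve libraries, 0 were 2-fold lower in Tbx18 than in NG2 (10.9% of all genes). The genes were chosen on the same data, by ratios between clusters, so these counts between libraries are a description only.

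Nearly all of these molecules sat in a handful of cells. Over the 6 libraries, 32 of 17033 cells held 99.1% of the 208970 hemoglobin UMIs, and 757 of the 935 cells with any such UMI held exactly 1. The single highest cell held 1297, 14340 and 15369 UMIs in the NG2 naïve, physical injury and ischemic injury libraries and 25, 16895 and 15363 UMIs in the Tbx18 ones. The 10 highest cells held 99.8%, 99.6% and 99.8% of the hemoglobin UMIs in the NG2 libraries, but 42.6% in the Tbx18 naïve library and then 98.7% and 99.6% in the injured Tbx18 ones. Tbx18 naïve was thus the only library of the 6 without a cell of 100 or more UMIs. Among all genes with at least 100 UMIs in a library, the median share held by the 10 highest cells was 5.49% to 17.6%. By this share the members ranked 1 to 5 among 11234 to 13931 genes in the NG2 libraries and 10 to 17 among 11036 or 12076 genes in the injured Tbx18 libraries, while Hbb-bs ranked 73 of 5651 (44.1%) in the Tbx18 naïve library. The genes were chosen for ratios that came from few cells, so these ranks largely restate that choice. The variance of the UMIs per cell over their mean was 1057, 9459 and 10014 in the NG2 libraries and 6.94, 12931 and 11339 in the Tbx18 ones.

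**Figure D1:**
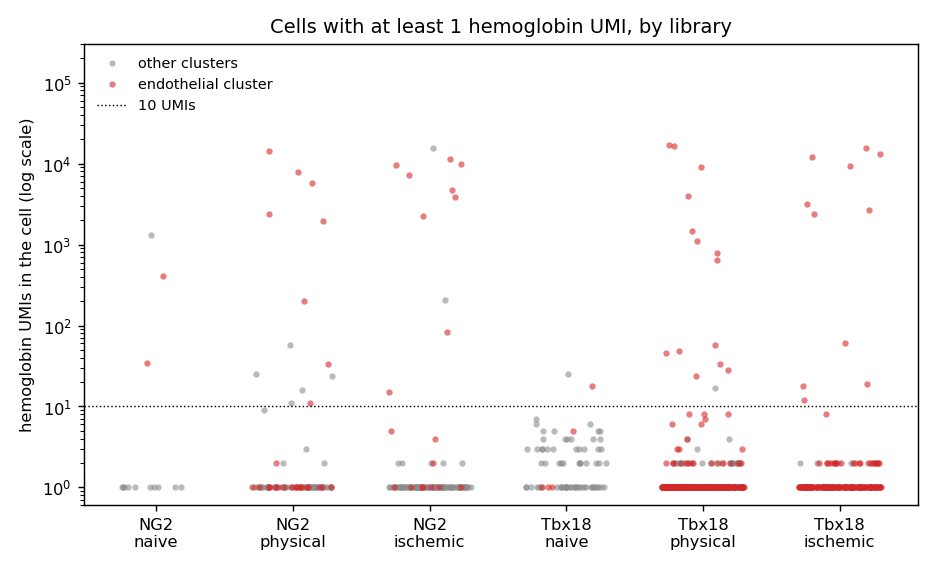
Hemoglobin UMIs (log scale) of each cell with at least 1 such UMI, by library, with cells of the endothelial-like cluster in red and all other cells in grey; the dotted line is at 10 UMIs. A band of cells with 1 or 2 UMIs lies at the bottom of each library, few cells lie between 10 and 99 UMIs, and cells with 200 to 16895 UMIs occur in every library but Tbx18 naïve.

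The cells fell into ranges that were used for description. A cell was counted as high from 10 UMIs and as very high from 100 UMIs, with 9 and 11 UMIs on either side of the first limit and 84 and 200 UMIs on either side of the second. High cells numbered 3, 13 and 11 in the NG2 naïve, physical injury and ischemic injury libraries and 2, 15 and 11 in the Tbx18 ones. Very high cells numbered 2, 6 and 9 in the NG2 line and 0, 8 and 7 in the Tbx18 line. The 32 very high cells were 17 NG2 and 15 Tbx18 cells, and 29 of them lay in the endothelial-like clusters. Over these 32 cells the log10 counts of the 4 genes (plus 1) ran together, with Pearson correlations from 0.909 (Hba-a2 with Hbb-bt) to 0.997 (Hba-a1 with Hba-a2), as a description of cells from 5 libraries of unequal depth. The cells were chosen by the sum of the same genes, so high correlations are in part built in. Over all cells of the Tbx18 physical injury library, 29 of the 83 with Hba-a1 also had Hbb-bs.

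The very high cells are described in groups split at 500 genes, a limit set after the values were seen. Those above it were then grouped by whether they lay in an endothelial-like cluster. In 5 of these cells, with under 500 genes, hemoglobin made up 63.8% to 96.9% of the UMIs. The Tbx18 physical injury library held 3 of these, with 16895 hemoglobin UMIs of 17431, 16639 of 17286 and 1490 of 2336. The NG2 ischemic injury library held 1, with 15369 of 15989 UMIs, and the NG2 naïve library 1, with 1297 of 1730. These 5 cells had only 200 to 457 genes and 433 to 846 other UMIs, and Alas2 was detected in each of them. Endothelial marker UMIs numbered 4 among 433 other UMIs in the NG2 naïve cell. They numbered 6 among 846 in the Tbx18 cell with 1490 hemoglobin UMIs, and 0 in the rest of the 5. In the 26 others that were grouped by lying in the endothelial-like clusters, hemoglobin came beside many other transcripts, endothelial markers among them. Beside 200 to 15363 hemoglobin UMIs they had 2498 to 19881 other UMIs (median 7596), 1291 to 5353 genes and 18 to 277 endothelial marker UMIs. Pericyte marker UMIs numbered 0 to 291 in these cells, with a median of 1. In some NG2 cells they outnumbered the endothelial ones, at 291 against 202, 156 against 109, 148 against 126 and 32 against 18. Hemoglobin made up 3.90% to 79.6% of the UMIs of these 26 cells, a range that overlaps that of the 5 cells. The last very high cell, in cluster 7 of the NG2 ischemic injury library, had 209 hemoglobin UMIs among 41864 and no endothelial marker UMI.

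Set beside the other cells of the same cluster and library, the 26 cells had like levels of endothelial markers. The clusters were formed on expression and the 26 cells were picked from them, so this likeness is in part built in. With hemoglobin left out of the total, the 5 markers summed to 15388 CPM in the 1 such NG2 naïve cell against 13539 CPM in the 99 endothelial-like cells with under 10 hemoglobin UMIs. After physical injury the NG2 values were 13154 against 13881 CPM (6 against 396 cells), and after ischemic injury 13690 against 13045 CPM (7 against 444 cells). In the Tbx18 line they were 15725 against 14749 CPM after physical injury (5 against 1774 cells) and 16363 against 14789 CPM after ischemic injury (7 against 1477 cells). Pericyte markers differed more. In the NG2 naïve, physical injury and ischemic injury libraries they summed to 1215 against 5554, 6149 against 3714 and 4682 against 3358 CPM. In the injured Tbx18 libraries they summed to 579 against 361 CPM (physical) and 70.6 against 106 CPM (ischemic). The level of the erythroid-defining genes, in contrast, was 202 to 1430 CPM in these cells and 0.984 to 3.19 CPM in the others. Whether some droplets held more than 1 cell was not tested.

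The endothelial-like cluster took a larger share of the injured libraries than of the naïve ones. It made up 2.35%, 15.8% and 12.6% of the NG2 naïve, physical injury and ischemic injury cells and 23.2%, 46.5% and 72.7% of the Tbx18 ones. Within that cluster, very high cells were 1 of 101 in the NG2 naïve library (0.990%, exact 95% Clopper-Pearson interval 0.0251% to 5.39%), 6 of 404 after physical injury (1.49%, 0.547% to 3.20%) and 7 of 453 after ischemic injury (1.55%, 0.623% to 3.16%). In the Tbx18 line they were 0 of 159 naïve cells, with an interval up to 2.29% (the limit of 3 counts is 1.89%), then 8 of 1788 (0.447%, 0.193% to 0.880%) and 7 of 1488 (0.470%, 0.189% to 0.967%). A naïve to injured difference in the share within the cluster was thus not detectable at these cell numbers. Outside the cluster, very high cells were 1 of 4205 and 2 of 3133 in the NG2 naïve and ischemic injury libraries and 0 in the other 4. The cluster held 99.4% and 75.7% of the hemoglobin UMIs of the injured NG2 libraries and 99.5% and 99.9% of those of the injured Tbx18 libraries, against 25.5% and 12.7% in the NG2 and Tbx18 naïve ones. These shares of cells cover counting error only, and the sort sets which endothelial cells enter a library.

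**Figure D2:**
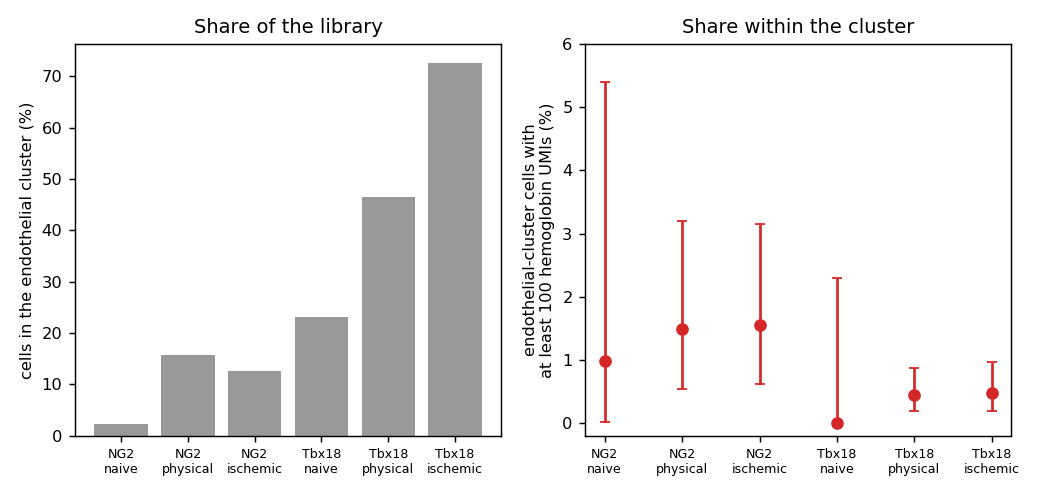
Left, cells of the endothelial-like cluster as a percentage of each library (bars from 0); right, the percentage of those cells with at least 100 hemoglobin UMIs (points) with exact 95% Clopper-Pearson intervals (lines). The left panel runs from 2.35% to 72.7%, while the intervals of the naïve and injured libraries of each line overlap in the right panel.

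The level of a whole cluster could rest on 1 cell. NG2 cluster 7 stood at 43497 CPM in the naïve library, where 1 of its 17 cells held all 1297 UMIs and the level without it is 0. In the ischemic injury library its 438 cells stood at 1030 CPM, and at 15.3 CPM without the highest cell. The endothelial-like clusters depended less on a single cell after injury: NG2 cluster 5 stood at 701, 8820 and 10312 CPM in the naïve, physical injury and ischemic injury libraries, and at 53.8, 4965 and 7927 CPM without the highest cell of each. Tbx18 cluster 0 stood at 35.1, 4140 and 4142 CPM, and at 10.9, 2772 and 3057 CPM without it.

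The transcripts most above expectation in the high cells were known erythroid ones. In the 27 high NG2 cells, each gene's UMIs were set against those expected from the remaining cells of the same cluster and library at the same total without hemoglobin. In each line only genes with at least 20 UMIs in the high cells themselves were compared. A gene with a low expected count could therefore enter only from far above expectation, and the shares and order below depend on this filter. Of 2675 genes compared, 36 (1.35%) were at least 2-fold above expectation. Among those most above it were Alas2 (166 UMIs against 0.282 expected), Tent5c (44 against 0.973), Bpgm, which makes the 2,3-bisphosphoglycerate that lowers the oxygen affinity of hemoglobin (105 against 8.77), and Mkrn1 (152 against 14.8). In the 28 high Tbx18 cells, 34 of 1768 genes (1.92%) passed the same limit. Among those most above expectation were Alas2 (171 UMIs against 0.0788), Bpgm (122 against 5.22), Tent5c (36 against 1.01) and Slc25a37, the mitochondrial iron importer of erythroid cells (30 against 1.11). Alas2, Tent5c and Bpgm were thus among these genes in both lines.

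Most Alas2 UMIs lay in the very high cells. These held 166 of the 253 Alas2 UMIs of the NG2 line (65.6%) and 170 of the 197 of the Tbx18 line (86.3%), and 29 of the 32 cells had at least 1. Several other erythroid-defining genes gave none: Klf1, Hemgn and Rhag had 0 UMIs in the very high cells of both lines, Epb42 had 0 in those of the NG2 line, and Car1 (carbonic anhydrase 1) had 0 in both. Over the list, 182 UMIs were found against 0.432 expected in the 17 very high NG2 cells and 173 against 0.0979 in the 15 Tbx18 cells, and 166 and 170 of these were Alas2. Slc4a1, Ahsp and Kel were not analysed here in either line, nor were Epb42, Gata1 and Trim10 in the Tbx18 line.

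Lists of general heme and iron genes stood nearer to expectation in the same cells. The 8 genes of heme synthesis gave 85 UMIs against 58.6 expected in the NG2 and 64 against 37.9 in the Tbx18 line, and those of iron handling (ferritins, transferrin and its receptor among them) 897 against 732 and 649 against 430. Of the heme synthesis UMIs, Fech gave 34 of the 85 and 14 of the 64. In the 27 high NG2 cells Fech had 38 UMIs against 5.44 expected, so the list sum hides 1 gene well above expectation. Genes of heme uptake and breakdown gave 80 against 54.6 and 46 against 27.5, and the oxidative stress targets of Nfe2l2 59 against 48.7 and 23 against 24.5. Endothelial markers were near expectation, at 1753 against 1731 and 1449 against 1352 UMIs, which a comparison within clusters in part builds in. Markers of arterial endothelium (Gja5, Bmx, Gkn3, Sema3g and Hey1) were low, at 7 against 57.5 and 10 against 46.1. Smooth muscle markers were at 1 against 22.6 in the NG2 and 7 against 3.27 in the Tbx18 line. Neutrophil genes had 0 and 1 UMIs against 0.135 and 0.0788 expected, and platelet genes 3 and 1 against 2.30 and 1.48. Counts this small on both sides do not set the very high cells apart. Pericyte markers gave 665 UMIs against 469 in the NG2 and 23 against 18.5 in the Tbx18 line. Of the 665, an ischemic injury cell gave 291 and physical injury cells gave 156 and 148.

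**Figure D3:**
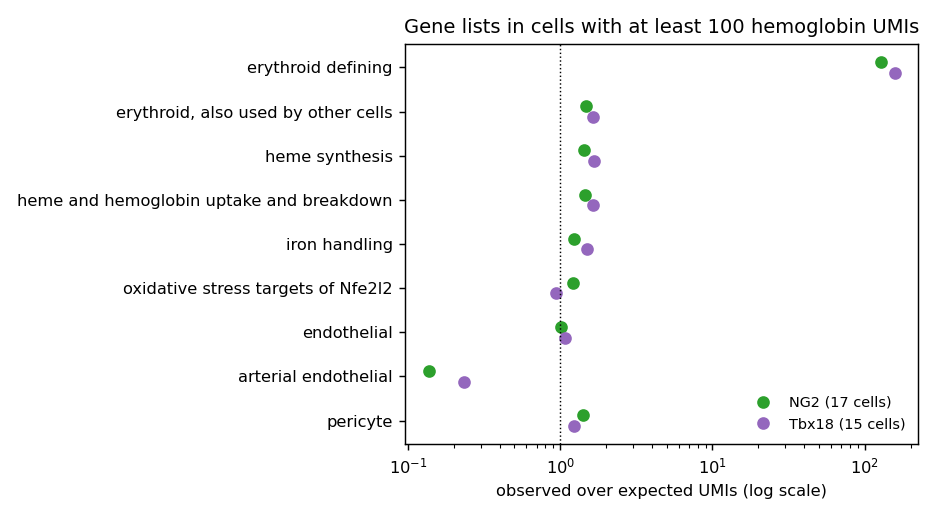
UMIs of each gene list in very high cells (at least 100 hemoglobin UMIs) over those expected from the other cells of the same cluster and library, with 1 added to both (log scale); green, 17 NG2 cells; purple, 15 Tbx18 cells; the dotted line is at 1. The erythroid-defining list stands far to the right in both lines, arterial endothelial markers lie left of the line, and the other plotted lists lie near it.

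The proportion of alpha UMIs separated the high cells further. In the 32 very high cells alpha made up 27.0% to 53.3% of the hemoglobin UMIs, with a median of 38.3%. Within the alpha pair, Hba-a1 took 53.8% to 68.2% in these cells, and within the beta pair Hbb-bt took 0% to 23.2% with a median of 11.2%. The 23 cells with 10 to 99 UMIs were split, with no cell between 53.3% and 64.7% alpha. In 13 of them alpha made up 64.7% to 100% of 11 to 84 UMIs, and pooled it was 368 of 439 UMIs (83.8%). An NG2 naïve cell had 33 alpha UMIs and 1 beta UMI, a Tbx18 physical injury cell 45 and 1, and a Tbx18 naïve cell 18 and 0. Of the 13 cells, 12 lay in the endothelial-like clusters, 4 were NG2 and 9 Tbx18 cells, and they came from naïve (2), physical injury (7) and ischemic injury (4) libraries. Alas2 had 0 UMIs in all 13, and Hbb-bt had 1 UMI in 1 of them. The very high cells had 336 Alas2 UMIs beside 207138 hemoglobin UMIs. At that proportion 439 hemoglobin UMIs are too few for 0 Alas2 UMIs to set the 13 cells apart. Arterial marker UMIs of the 13 numbered 71 in 1 cell, an NG2 physical injury cell with 30 alpha and 3 beta UMIs, and at most 2 in each of the rest. In the other 10 cells alpha made up 12% to 42.9% of 11 to 58 UMIs, 8 of the 10 had an Hbb-bt UMI and 1 had an Alas2 UMI. Among them were 4 shallow cells of NG2 cluster 7 after physical injury, with 503 to 964 UMIs and 357 to 694 genes.

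**Figure D4:**
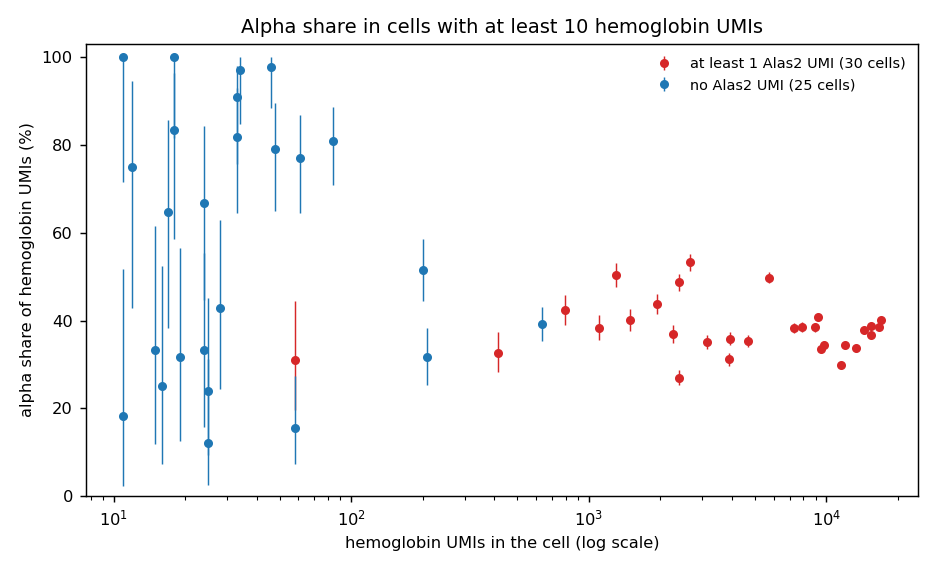
Alpha UMIs as a percentage of hemoglobin UMIs against the hemoglobin UMIs of the cell (log scale), for the 55 cells with at least 10; lines are exact 95% Clopper-Pearson intervals, red cells have at least 1 Alas2 UMI and blue cells have none. From 200 UMIs upward the cells lie between 27.0% and 53.3%, while 13 blue cells with 11 to 84 UMIs lie at 64.7% or above. The hemoglobin UMIs of these 13 cells are too few for the absence of Alas2 to set them apart.

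The remaining cells held a low level of hemoglobin UMIs. Cells with under 10 UMIs gave 0.494, 3.71 and 2.22 CPM in the NG2 naïve, physical injury and ischemic injury libraries and 51.2, 16.6 and 11.6 CPM in the Tbx18 ones. In the Tbx18 naïve library, 149 of the 161 UMIs of such cells lay in cluster 4. In the Tbx18 physical injury library this low level ran through every cluster, at 20.5 CPM in the endothelial-like cluster 0 (median 6702 UMIs per cell) and at 13.0, 21.6, 13.3, 13.5 and 13.8 CPM in clusters 1 to 5 (median 2540 to 12087 UMIs). The share of cells with at least 1 hemoglobin UMI was 0.302%, 3.55% and 3.29% in the NG2 libraries and 10.9%, 11.1% and 10.4% in the Tbx18 ones. These shares are not read as expression, and the origin of the UMIs was not tested. After each cell was thinned to 1000 UMIs and shallower cells were left out (70, 70 and 137 NG2 cells and 57, 149 and 33 Tbx18 cells), the shares were 0.118%, 0.682% and 0.696% in the NG2 libraries. Thinned shares in the Tbx18 libraries were 8.43%, 2.25% and 1.99%. The injured libraries thus came down further than Tbx18 naïve when depth was made equal.

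Alpha and beta were not in the same proportion everywhere in these low cells. In the injured NG2 libraries, alpha was 21 of 38 UMIs in the endothelial-like cluster (55.3%, exact 95% Clopper-Pearson interval 38.3% to 71.4%) and 36 of 173 in all other clusters (20.8%, 15.02% to 27.6%). In the injured Tbx18 libraries it was 32.1% (27.7% to 36.8%) in the endothelial-like cluster and 28.5% (23.6% to 33.9%) elsewhere. The intervals lie apart in the NG2 line and overlap in the Tbx18 line. They treat each UMI as independent and so are too narrow where a cell holds several. For example, 1 NG2 ischemic injury cell gave 5 of the 21 alpha UMIs and 0 beta UMIs. Cells with 2 or more alpha UMIs and no beta UMI numbered 3 in the NG2 and 4 in the Tbx18 endothelial-like cluster after injury, and those with 2 or more beta UMIs and no alpha UMI numbered 0 and 15.

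The Tbx18 naïve library differed from all others in where its hemoglobin was. Of its 204 UMIs, 174 lay in cluster 4, the cluster the study named vascular-genic pericytes. There 67 of 157 cells (42.7%) had a hemoglobin UMI, at 597 CPM and with a highest cell of 25 UMIs. These were 26 UMIs of Hba-a1, 23 of Hba-a2, 113 of Hbb-bs and 12 of Hbb-bt. Counts per cell were small: 90 cells had 0, 31 had 1, 11 had 2, 11 had 3, 6 had 4, 4 had 5, 2 had 6, 1 had 7 and 1 had 25. The median cell of this cluster held 1724 UMIs, and after thinning to 1000 UMIs the share was still 31.6%. In cluster 2 of the same library, which had 31057 CPM of the 8 pericyte markers, 1 of 226 deeper cells (median 6548 UMIs) had a hemoglobin UMI, or 0.442%. After injury, cluster 4 stood at 13.5 CPM (9.17% of cells) in the physical and 9.22 CPM (7.69%) in the ischemic injury library. The cells under this number were unlike those of the naïve library, with medians of 6756 and 8461 UMIs after physical and ischemic injury. Pericyte markers summed to 16100 CPM in naïve cluster 4 but to 1176 CPM in the cluster over all libraries of the line. The values therefore do not follow a single cell type through injury. Without cluster 4 the naïve share of the whole library was 1.51%.

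Cells of naïve cluster 4 carried markers of several vessel cell types, with or without hemoglobin. Those with a hemoglobin UMI had 16211 CPM of pericyte, 6053 CPM of smooth muscle, 2410 CPM of endothelial and 503 CPM of fibroblast markers. Those without had 16019, 7123, 2112 and 345 CPM. The median share of mitochondrial transcripts was 4.29% and 4.57%. In the separate clustering of both naïve libraries, 66 of the 246 Tbx18 cells of cluster 6 (26.8%, 404 CPM) and 0 of its 29 NG2 cells had a hemoglobin UMI. The part that free RNA has in these values was not tested.

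**Figure D5:**
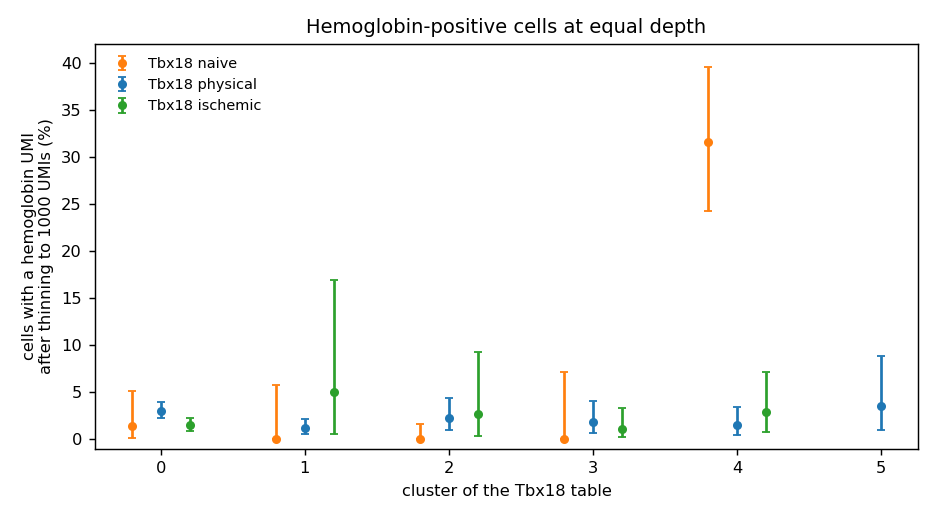
Percentage of Tbx18-tdT+ cells with a hemoglobin UMI after each cell was thinned to 1000 UMIs, by cluster and library, with exact 95% Clopper-Pearson intervals (lines). Cluster 4 of the naïve library stands at 31.6%, with an interval from 24.3%, and no interval of another plotted cluster (at least 20 cells) reaches above 16.9%.

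Of the other globin genes, the embryonic beta-type gene Hbb-y was also found mostly in the endothelial-like clusters. It had 6, 54 and 13 UMIs in the NG2 naïve, physical injury and ischemic injury libraries (0.296, 2.19 and 0.240 CPM) and 0, 127 and 152 UMIs in the Tbx18 ones (0, 4.21 and 7.48 CPM). All 73 NG2 UMIs and 271 of 279 Tbx18 UMIs (97.1%) lay in the endothelial-like clusters, over 14 NG2 cells and 73 Tbx18 cells in all, of which 1 NG2 and 8 Tbx18 cells had 10 or more. None of them was a very high cell: Hbb-y had 0 UMIs in all 32. After injury the endothelial-like clusters had 70 cells with Hbb-y and 3206 without it in the Tbx18 line, and 11 and 846 in the NG2 line. At such shares, 0 of 32 cells cannot tell whether Hbb-y and the adult genes keep apart. In the endothelial-like cluster of the injured Tbx18 libraries, 3 of 70 cells with Hbb-y (4.29%, exact interval 0.893% to 12.02%) and 354 of 3206 without it (11.04%, 9.98% to 12.2%) had a UMI of the 4 adult genes, and these intervals overlap. In the NG2 line the order was the other way, with 1 of 11 cells with Hbb-y (9.09%, 0.230% to 41.3%) and 45 of 846 without it (5.32%, 3.91% to 7.05%), and these intervals overlap too. Cytoglobin (Cygb) is a globin of pericytes and fibroblasts. Over whole libraries it ran opposite to hemoglobin. It stood at 65.4, 25.4 and 14.997 CPM in the NG2 and 59.6, 5.96 and 2.02 CPM in the Tbx18 line. In NG2 clusters 0, 1, 2 and 8, pericytes in the study, the fall was smaller or absent. Cygb stood at 98.3, 99.004 and 110.3 CPM in cluster 0 and at 76.8, 63.8 and 97.2 CPM in cluster 1. It stood at 91.1, 75.9 and 86.3 CPM in cluster 2 and 97.4, 97.4 and 68.1 CPM in cluster 8. Tbx18 cluster 2 stood at 101.5, 70.7 and 96.5 CPM, but cluster 4 at 54.9, 14.3 and 3.84 CPM. The part of cell make-up was not tested. The fall of Cygb over whole libraries went with that of the pericyte markers, of which 8 of 8 were at least 2-fold below naïve in each injured library, beside 6.14% and 12.3% of all genes in the NG2 physical and ischemic injury libraries and 12.3% and 16.1% in the Tbx18 ones.

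Few genes of the wider heme pathway followed hemoglobin in the library sums. Of the 8 genes of heme synthesis, 1 (Cpox) was at least 2-fold above naïve in both injured NG2 libraries, 0 in the Tbx18 physical injury library and 1 (Alas1, the enzyme that starts heme synthesis outside the erythroid lineage) in the Tbx18 ischemic injury library. Their median log2 ratios were -0.0033, 0.10, 0.07 and -0.13, beside 0.06, 0.14, -0.04 and -0.06 over all genes. Of the 11 iron handling genes, 4, 3, 4 and 5 were at least 2-fold higher in the same order and 1, 0, 0 and 0 lower, beside 21.4%, 26.2%, 17% and 20% of all genes higher. Among the higher ones was transferrin (Trf), at log2 ratios of 1.88, 2.23, 2.06 and 1.84. The 4 oligodendrocyte markers were also at least 2-fold higher in each injured library, 4 of 4, and their part in the level of Trf was not tested. The median log2 ratios of the iron list were 0.22, 0.65, 0.39 and 0.70. Alas2 was 1.64 and 1.55 above naïve on the log2 scale in the NG2 and 0.84 and 1.19 in the Tbx18 line, where only 6 naïve UMIs were counted. With TMM factors in place of library totals, all log2 ratios shift by -0.05, -0.07, 0.21 and 0.20 in that order, which turns the last heme synthesis median positive.

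Hmox1, heme oxygenase, which breaks heme down, stood higher in every injured library than in its naïve one. It stood at 3.55, 11.9 and 52.6 CPM in the NG2 naïve, physical injury and ischemic injury libraries and at 3.805, 59.2 and 23.7 CPM in the Tbx18 ones. The very high cells held 1 Hmox1 UMI in each line. In the endothelial-like clusters, where most of these cells lay, Hmox1 stood at 10.8 and 13.3 CPM after physical and ischemic injury in the NG2 line. It stood at 14.2 and 12.8 CPM there in the Tbx18 line, so few UMIs would be expected in so few cells. In the NG2 ischemic injury library 1778 of its 2857 UMIs lay in cluster 9, and in the Tbx18 physical injury library 1230 of 1787 lay in cluster 3, the clusters where microglia and macrophage markers summed to 20259 and 5767 CPM. A single cell held 576 and 568 of those UMIs.

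Over single cells Alas2 ran most like hemoglobin in both lines. Over the 10455 NG2 cells, the highest Pearson correlations of log2(1 + counts per 10000 UMIs) with the summed members included those of Alas2 (0.61), Slc25a21 (0.21), Cd24a (0.20) and Isg20 (0.17). Over the 6578 Tbx18 cells they included Alas2 (0.56), Slc25a37 (0.13), Bpgm (0.13) and Ptgds (0.11). Alas2 stood well above the others named, and the cells share libraries and differ in depth. Over 42 groups of a cluster in a library with at least 50 cells, the order was another: Gm26812 (0.89), the endothelial transcription factor Sox7 (0.86), Fmo2 (0.85), Stap2 (0.85) and Sp5 (0.85).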

How the data were processed

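Droplet libraries (10x Genomics 3′ chemistry, UMIs counted) were made from sorted tdT+/DAPI- cells of 6 pooled samples, 1 per line and condition. The authors aligned the reads to mm10 with Cell Ranger (7.0.0 in the submitters' processing notes), filtered cells in Seurat, removed a pair of genes taken for rRNA, and deposited tables of raw UMI counts. Their tables also carry a mitochondrial percent for each cell, deposited by the authors, which serves here as a description and as a filter in 1 alternative. Cluster numbers are the authors'. All deposited cells were kept, and no column of sample values was left unused (0). Naïve cells appear in 2 tables, and their hemoglobin counts were the same in 4992 of 4992.

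The 4 genes and the gene lists were chosen with earlier results of these data known. UMIs of the members were summed by library and cluster and given as CPM of all UMIs, with exact 95% Poisson intervals, and shares of cells with exact 95% Clopper-Pearson intervals. With 1 library per group no test was made, and a gene is counted as higher or lower from a ratio of 2 between libraries with at least 20 UMIs in both together. Cells with 10 or more members' UMIs were compared gene by gene with counts expected from the other cells of their library and cluster, which was tested on simulated data. Named are the 4 members, list genes with at least 20 UMIs, all erythroid genes measured, the 5 genes most above expectation per line (pseudocount 1, at least 20 UMIs) and the 5 most alike (UMI in at least 20 cells). Some genes that the rule names are not reported here. The cut at 60% alpha, the limit of 100 UMIs and the split at 500 genes were set after the values were seen. The sources used here do not mention doublets, and no doublet caller was run. Depth ranged from 3153996 to 54276245 UMIs a library. Alternatives covered left-out cells, the filters of the methods applied again, thinning, TMM factors and equal weights of clusters. TMM factors came from edgeR 4.0.16 in R 4.3.3, figures from matplotlib 3.10.9, and all other values from Python 3.11.15 with pandas 2.3.3, scipy 1.17.1 and numpy 2.4.6. Gene positions follow GENCODE M21. The annotation used in counting is not given in the sources used here.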

Additional observations from a re-analysis of the deposited data

Results flagged for a closer look

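The difference between the injuries ran in opposite directions in the lines. Hemoglobin CPM after ischemic injury lay below that after physical injury in the NG2 line, at a log2 ratio of -0.16, and above it in the Tbx18 line, at 0.76. This difference between the lines was not tested, since each value compares 1 library with 1 library. The values rest on few cells: very high cells numbered 6 and 9 in the injured NG2 libraries and 8 and 7 in the Tbx18 ones, and without the highest cell of each library the NG2 ratio was 0.28 and the Tbx18 ratio 0.90. Without the 10 highest cells the ratios were -1.07 and -0.81, without cells of 10 or more UMIs -0.74 and -0.51, and with clusters weighted equally 0.23 and 0.0029, so the direction turned in either line.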

How the results depend on the processing

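No paired analysis was possible because each group has 1 library. No value carries a replicate error, and the intervals cover counting error only. Very high cells number 0 to 9 a library, so the library and cluster levels are set by few cells. In the Tbx18 naïve endothelial-like cluster, 0 very high cells of 159 allow a share of up to 2.29% by the exact interval (the limit of 3 counts is 1.89%). The following values are in the order NG2 naïve, physical, ischemic, then Tbx18 naïve, physical, ischemic. Hemoglobin CPM was 0.148, 5.25, 2.5, 37.5, 21.5 and 12.2 without the 10 highest cells. It was 85.1, 1260.0, 1113, 61.5, 1871 and 3142 with TMM factors. It was 194, 851, 1125, 156, 1048 and 1638 as a mean over cells. It was 27.2, 1762, 1641, 76, 269 and 2449 with the methods' filters applied again. It was 101, 1601, 1468, 76.4, 329 and 2417 without the deepest 5% of cells. It was 0.494, 3.71, 2.22, 51.2, 16.6 and 11.6 without cells of 10 or more hemoglobin UMIs. It was 22.6, 747, 907, 56.8, 1138 and 2123 without the single highest cell. Log2 ratios are in the order NG2 physical to naïve, ischemic to naïve and ischemic to physical, then the same for Tbx18, then Tbx18 naïve to NG2 naïve. Without the 10 highest cells they were 5.15, 4.07, -1.07, -0.80, -1.62, -0.81 and 7.98. With TMM factors they were 3.89, 3.71, -0.18, 4.93, 5.67, 0.75 and -0.47. As a mean over cells they were 2.13, 2.53, 0.40, 2.74, 3.39, 0.65 and -0.31. With the methods' filters applied again they were 6.02, 5.91, -0.10, 1.82, 5.01, 3.19 and 1.48. Without the deepest 5% of cells they were 3.99, 3.86, -0.12, 2.11, 4.98, 2.88 and -0.40. Without cells of 10 or more hemoglobin UMIs they were 2.91, 2.17, -0.74, -1.63, -2.14, -0.51 and 6.70. Without the single highest cell they were 5.05, 5.33, 0.28, 4.32, 5.22, 0.90 and 1.33. With clusters weighted equally they were 3.65, 3.88, 0.23, 2.71, 2.71 and 0.0029 (the last not computed between lines). With TMM factors from genes of at least 10 counts they were 3.88, 3.68, -0.20, 4.91, 5.67, 0.76 and -0.46. The percentage of hemoglobin-positive cells was 0.118, 0.682, 0.696, 8.43, 2.25 and 1.99 after thinning. The percentage of hemoglobin-positive cells was 0.0697, 0.702, 0.53, 5.69, 1.59 and 1.86 with 2 UMIs required. The percentage of hemoglobin-positive cells was 0.303, 3.73, 2.84, 11.5, 10.9 and 9.97 with the methods' filters. It was 1.51 in Tbx18 naïve without cluster 4. The highest 1% of cells held 100, 99.8, 99.9, 35.3, 99.2 and 99.6 percent of the hemoglobin UMIs. The alpha to beta ratio without the 10 highest cells was 0, 0.518, 0.35, 0.36, 0.682 and 0.5. High cells in Tbx18 naïve numbered 10 with a limit of 5 UMIs, 1 with 20 UMIs and 1 with 1% of the cell's UMIs, and in Tbx18 ischemic 7 with the last. The injured to naïve ratios of the Tbx18 line turned negative without the 10 highest cells and without cells of 10 or more UMIs, the ischemic to physical ratio changed sign in the NG2 line in 3 alternatives and in the Tbx18 line in 2, and the naïve ratio between the lines turned positive in 4 alternatives. Alternatives that leave out high cells change these sums by construction. For the others the cause was not tested. The alternatives that leave out cells of 10 or more UMIs, the single highest cell or cluster 4 were chosen after seeing the data. The filters of the methods dropped very high cells: 1 of 2 in NG2 naïve, 4 of 8 in Tbx18 physical and 1 of 7 in Tbx18 ischemic. Of the 48 levels by cluster and library, 11 moved beyond their counting interval without the 10 highest cells and 15 without the highest cell of the group.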

Other observations

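Most UMIs of hemoglobin and of Hbb-y in the injured libraries lay in the endothelial-like clusters, and 1 NG2 cell with Hbb-y also held 33 hemoglobin UMIs. The cell with the most Hbb-y, in the NG2 physical injury library, had 47 UMIs, and the highest Tbx18 cells had 29 UMIs in each injured library. Neuroglobin (Ngb), a globin of neurons, stood at 4.29, 2.59 and 1.66 CPM in the NG2 naïve, physical injury and ischemic injury libraries and at 2.85, 7.42 and 0.443 CPM in the Tbx18 ones, and had 0 UMIs in the very high cells. Of its UMIs, 80 of 87 in the NG2 naïve library lay in cluster 3 and 212 of 224 in the Tbx18 physical injury library in cluster 1. In those clusters the smooth muscle markers summed to 25467 and 27834.5 CPM. Within NG2 cluster 3 Ngb stood at 20.6, 20.6 and 20.3 CPM in the NG2 libraries. Hbq1a, an alpha-type globin gene, had 9 UMIs in the NG2 line, 5 of them in 5 very high cells.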
